A study of Homo sapiens with 24 samples.

Results

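The NUTM2 genes are a family of near-identical paralogs, and on this array their transcripts are read by 41 probe sets that name NUTM2A, NUTM2B, NUTM2D, NUTM2E, NUTM2F, NUTM2G or the pseudogene NUTM2HP, alone or together. They were taken by these names from the probe annotation, and antisense genes of the family were not taken. Of the 41 rows of the value table, 7 repeated another row's values on every array, which left 34 distinct rows of 352859 in all. The samples were HEK293 (a human embryonic kidney line) and BJ-hTERT (human foreskin fibroblasts immortalised with telomerase), and in every array, mock arrays included, the cells carried HA-YWHAE-NUTM2, a tagged fusion gene under an inducible promoter. Each line was given doxycycline, which switches the gene on, or the water vehicle (mock), for 24 or 72 h, with 3 arrays in each of the 8 groups (24 Affymetrix Human Gene 2.1 ST arrays). HEK239 stands for HEK293 in the titles of 3 arrays (doxycycline, 24 h), whose cell line label reads HEK293. Neither the NUTM2 paralog in the construct, nor whether each line is a clone, nor whether the 3 arrays are separate cultures is stated, so a p-value reflects only the spread among arrays, which may be technical. No line without the fusion gene is among the arrays, so doxycycline and the fusion it induces cannot be told apart.

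YWHAE encodes 14-3-3 epsilon, an adaptor that binds phosphorylated proteins. In some clear cell sarcomas of the kidney, and in a high-grade form of endometrial stromal sarcoma, a chromosomal translocation joins it to a NUTM2 gene, and the fusion transcript starts with YWHAE sequence and ends with NUTM2 sequence. NUTM2 genes (formerly FAM22) resemble NUTM1, the gene fused in NUT carcinoma, and the normal role of their proteins is poorly known.

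The 41 rows lie in 4 runs of neighbouring rows. The NUTM2B run has 15 rows that all name NUTM2B, the NUTM2A run has 14 that all name NUTM2A, the NUTM2D run has 4 and the NUTM2G run has 8. All 7 copied rows belong to the NUTM2A run and repeat rows of the NUTM2B run in the same order. Rows 1, 4, 5, 6, 9, 13 and 14 of the NUTM2A run hold the values of rows 1, 4, 6, 7, 9, 13 and 14 of the NUTM2B run. The 2 runs can therefore be read side by side. Of the 34 distinct rows, 17 name several paralogs and 17 name 1 gene, and NUTM2E, NUTM2F and NUTM2HP are named only together with others. A row that names several paralogs does not separate them. The current gene table places NUTM2A, NUTM2B, NUTM2D, NUTM2E and NUTM2HP on chromosome 10 and NUTM2F and NUTM2G on chromosome 9.

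Part of the family is also alike in the bases before the start sites, shown here because NUTM2A and NUTM2B share 7 rows of the array and many row names. RefSeq windows (GRCh38.p14, 300 bases from 250 before the start to 50 after it) matched 6 of the 7 members. Those of NUTM2A and NUTM2B had 300 of 300 bases in common. The NUTM2D window lined up with both over 224 bases, 222 of them identical, at an offset. The NUTM2F and NUTM2G windows shared 139 of 139 aligned bases. The NUTM2E window lined up with that of NUTM2B over only 28 bases, 18 of them identical, which is too little to be read as likeness. Below are the 250 bases before the start of NUTM2B (chr10:79702977-79703226, plus strand), which are letter for letter those before NUTM2A (chr10:87225198-87225447, plus strand), and the 174 bases upstream of NUTM2D that line up with them (chr10:87357494-87357667, plus strand). Capitals mark the 2 bases of the NUTM2D stretch that differ from NUTM2B.
NUTM2B: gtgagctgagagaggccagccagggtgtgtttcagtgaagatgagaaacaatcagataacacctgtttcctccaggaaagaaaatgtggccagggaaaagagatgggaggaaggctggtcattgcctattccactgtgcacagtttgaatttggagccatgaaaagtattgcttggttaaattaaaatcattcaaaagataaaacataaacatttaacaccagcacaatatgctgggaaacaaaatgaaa
NUTM2D: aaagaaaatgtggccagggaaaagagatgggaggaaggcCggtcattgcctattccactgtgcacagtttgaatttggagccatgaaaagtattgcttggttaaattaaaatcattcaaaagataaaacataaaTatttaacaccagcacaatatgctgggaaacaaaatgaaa

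All levels are log2 probe set intensities, so a difference of 1 is a doubling, and a level is compared only within its own row. Each row was tested with limma in 1 fit of the 8 group means to all 24 arrays, with Benjamini-Hochberg adjustment over all 352859 rows. A row is called to rise or fall at an adjusted p under 0.05, and values after ± are standard errors of a difference unless SD is written. Line markers were compared with the labels. Of 10 fibroblast markers, 9 were higher in every BJ-hTERT array than in every HEK293 array, with POSTN overlapping, and the mean marker level was 7.60 to 8.26 in BJ-hTERT and 3.60 to 3.90 in HEK293. Of 8 kidney line markers with probe sets, 5 were higher in every HEK293 array (PAX2, LIN28B, EPCAM, CDH1 and SOX2) and 3 overlapped. Array medians lay between 3.92 and 4.05, and replicate arrays correlated at r = 0.903 to 0.920 across rows, which are not independent.

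In each line and at each time some NUTM2 rows rose with doxycycline. In HEK293, 6 of the 34 rows rose at 24 h and 11 at 72 h, and in BJ-hTERT 14 rose at 24 h and 14 at 72 h. Over the whole array the share of rows that rose was 0.0269% in HEK293 at 24 h, 0.0405% in HEK293 at 72 h, 0.208% in BJ-hTERT at 24 h and 0.154% in BJ-hTERT at 72 h. No member fell, where 0.00567%, 0.0105%, 0.557% and 0.264% of all rows did in the same order. In at least 1 comparison 15 different members rose, against 0.378% of all rows. In all 4 comparisons 6 members rose, against 0.00198% of all rows (7 rows, the seventh being a copy of 1 of the 6). The median change over the 34 rows was 1.28 and 0.91 in HEK293 at 24 and 72 h and 1.85 and 1.31 in BJ-hTERT, beside medians of all rows between -0.00239 and 0.0206. At unadjusted p under 0.05, 17, 17, 18 and 18 members were higher with doxycycline and 2, 2, 4 and 0 were lower, in the same order of comparisons, where 3.23%, 3.27%, 4.75% and 4.44% of all rows were higher and 3.03%, 3.1%, 4.79% and 5.04% lower.

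The separation of arrays varied less than the calls. Doxycycline arrays lay above all mock arrays at 16 and 17 members in HEK293 at 24 and 72 h (5.79% and 6.35% of all rows) and at 18 and 18 in BJ-hTERT (8.01% and 7.82%). All 15 members that rose anywhere had their 3 doxycycline arrays above their 3 mock arrays in all 4 comparisons, which held for 122 rows of the array (0.0346%). The other 19 members did not have that separation in all 4. The count of calls depended on which arrays shared the estimate of the spread. Fitted on the 6 arrays of a comparison alone, 0 members were called in any of the 4 comparisons, while 19 had an unadjusted p under 0.05 in each. How many of all rows passed either threshold in these fits was not counted. At 72 h the count also moved with single arrays. In HEK293 it was 6 without doxycycline array 2 and 7 without mock array 1, mock array 2, doxycycline array 1 or doxycycline array 3. For BJ-hTERT it was 9 without mock array 1 and 9 without doxycycline array 3. The 6 members called in all 4 comparisons became 3 without HEK293 mock array 1 at 72 h and 3 without HEK293 doxycycline array 2 at 72 h.

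**Figure D1:**
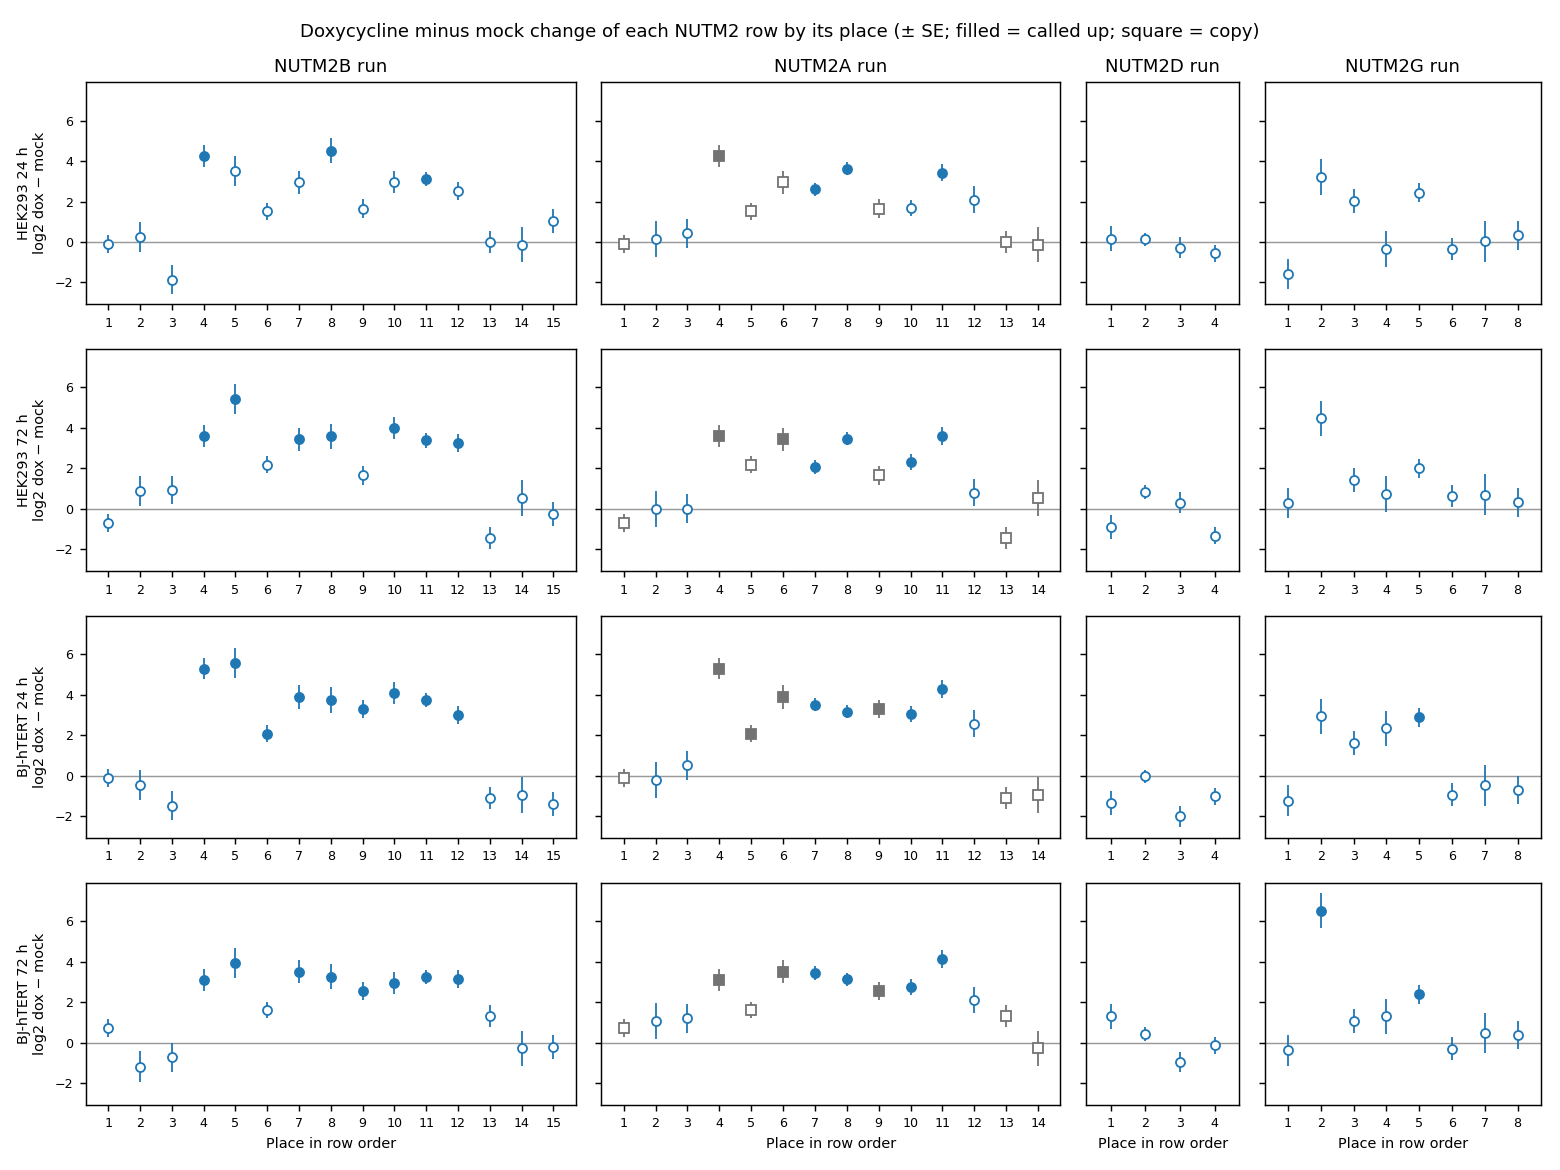
Change of every NUTM2 row with doxycycline (log2 doxycycline minus mock, vertical axis, ± SE, n = 3 arrays a group) against its place in row order (horizontal axis), with 1 line of panels per comparison and 1 column per run. Circles are distinct rows, grey squares rows of the NUTM2A run that copy the NUTM2B run, and filled symbols were called to rise. The rises lie in rows 4 to 12 of the NUTM2B run and rows 4 to 11 of the NUTM2A run, and no row outside rows 2 and 5 of the NUTM2G run was called besides them.

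Row order gave a clear shape (the plot of change by place). In the NUTM2B run, rows 4 to 12 all rose in at least 1 comparison, and rows 1 to 3 and rows 13 to 15 did so in none. In the NUTM2A run, rows 4 to 11 rose in at least 1 comparison when the copied rows are counted, and rows 1 to 3 and 12 to 14 in none. The rise thus began at the fourth row of both runs, and these rows hold the same values. The risen stretch of a run was drawn from its first to its last called row, after the values were seen. Rows before and after it therefore hold no called rise by definition. On chromosome 10, successive plus-strand genes in row order lay at increasing positions of the current gene table in 366 of 372 pairs (98.4%), and on chromosome 9 in 320 of 324 (98.8%). NUTM2A, NUTM2B, NUTM2D and NUTM2G are plus-strand genes. If rows within a gene follow the order seen between genes, low places lie toward the 5′ end, which was not tested because the positions of the probe sets are not used here.

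Row 4 of the NUTM2B run (probe set 16706550), which names all 7 members, marks the start of the rise. In HEK293 at 24 h it read 9.27, 9.07 and 8.72 in doxycycline arrays, against 5.22, 2.83 and 6.26 in mock arrays. At 72 h in HEK293 it stood at 8.83, 9.08 and 9.12 in doxycycline arrays, against 5.10, 5.54 and 5.58 in mock arrays. The doxycycline arrays lay close together, while the 24 h mock arrays ranged widely, and the groups did not overlap. Its change was 4.25 ± 0.53 (adjusted p = 0.0033) at 24 h and 3.60 ± 0.53 (adjusted p = 0.0094) at 72 h. In BJ-hTERT at 24 h the row read 9.31, 9.40 and 9.82 in doxycycline arrays, against 4.003, 4.63 and 4.04 in mock arrays. The BJ-hTERT values at 72 h were 9.18, 9.28 and 9.54 in doxycycline arrays, against 6.19, 6.11 and 6.40 in mock arrays. The BJ-hTERT mock arrays stood about 2 log2 units higher at 72 h than at 24 h, while the doxycycline arrays were alike at the 2 times. Its rise in BJ-hTERT was 5.29 ± 0.53 (adjusted p = 0.00023) at 24 h and 3.10 ± 0.53 (adjusted p = 0.014) at 72 h.

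The row just before it, row 3 of the NUTM2B run, which names NUTM2A, NUTM2B, NUTM2D and NUTM2E, showed no rise. Its HEK293 values at 24 h were 2.43, 3.27 and 2.56 in doxycycline arrays, against 3.40, 4.35 and 6.09 in mock arrays. In BJ-hTERT at 24 h they were 3.01, 0.85 and 3.37 in doxycycline arrays, against 4.10, 3.69 and 3.89 in mock arrays. Doxycycline arrays lay below mock arrays in both cases, and the changes of -1.86 ± 0.71 (adjusted p = 0.68) and -1.48 ± 0.71 (adjusted p = 0.53) missed the threshold. At 72 h in HEK293 row 3 read 3.74, 5.22 and 3.98 in doxycycline arrays, against 3.89, 3.24 and 3.01 in mock arrays, a change of 0.93 ± 0.71 (adjusted p = 0.92). In BJ-hTERT at 72 h it read 1.92, 2.82 and 1.68 in doxycycline arrays, against 1.70, 4.09 and 2.82 in mock arrays, a change of -0.73 ± 0.71 (adjusted p = 0.84), and both pairs of groups overlapped. Changes over the 4 comparisons ran from -1.86 to 1.20 at the 6 distinct rows that precede the first risen row of their run. These are 3 rows in the NUTM2B run, 2 in the NUTM2A run and 1 in the NUTM2G run. Their smallest adjusted p was 0.53, and a called rise among them was not possible, as it would have set the start of the stretch.

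Row 2 of the NUTM2B run names every member but NUTM2F and NUTM2G and lies 2 rows before the rise. Its levels in HEK293 were 5.91, 5.66 and 5.19 in doxycycline arrays, against 6.12, 6.04 and 3.83 in mock arrays at 24 h. After 72 h they were 5.80, 6.10 and 6.26 in doxycycline arrays, against 5.74, 4.45 and 5.29 in mock arrays. The changes were 0.26 ± 0.75 (adjusted p = 1) and 0.89 ± 0.75 (adjusted p = 0.94), and the groups overlapped at 24 h only. The BJ-hTERT levels were 2.52, 5.06 and 4.94 in doxycycline arrays, against 5.02, 3.56 and 5.29 in mock arrays at 24 h. They were 3.35, 5.03 and 5.73 in doxycycline arrays, against 4.97, 6.21 and 6.49 in mock arrays after 72 h. Groups overlapped at both times, with changes of -0.45 ± 0.75 (adjusted p = 0.93) and -1.19 ± 0.75 (adjusted p = 0.69).

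In the NUTM2A run, row 3 comes just before the rise and names NUTM2A, NUTM2D, NUTM2F, NUTM2G and NUTM2HP. The 24 h values in HEK293 were 4.33, 4.28 and 5.16 in doxycycline arrays, against 3.05, 5.11 and 4.32 in mock arrays. The 72 h values in HEK293 were 3.46, 5.21 and 2.98 in doxycycline arrays, against 2.91, 4.50 and 4.17 in mock arrays. All groups overlapped, and the changes were 0.43 ± 0.71 (adjusted p = 0.99) and 0.02 ± 0.71 (adjusted p = 1). The 24 h values in BJ-hTERT were 5.23, 5.72 and 3.69 in doxycycline arrays, against 5.11, 4.29 and 3.69 in mock arrays. The 72 h values in BJ-hTERT were 3.85, 3.22 and 4.62 in doxycycline arrays, against 3.47, 1.49 and 3.12 in mock arrays. Overlap was again seen, and the changes were 0.52 ± 0.71 (adjusted p = 0.91) and 1.20 ± 0.71 (adjusted p = 0.66). Row 2 of that run, 2 rows before the rise, had changes from -0.19 to 1.06, with overlap in all 4 comparisons.

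Row 1 of the NUTM2B run had the highest mock mean of any member in HEK293, and it names NUTM2A, NUTM2B, NUTM2D and NUTM2E. In HEK293 at 24 h it read 6.999, 6.75 and 6.85 in doxycycline arrays, against 6.98, 7.14 and 6.74 in mock arrays. The corresponding 72 h levels were 6.22, 6.66 and 5.88 in doxycycline arrays, against 7.17, 6.89 and 6.83 in mock arrays. The 24 h groups overlapped and the 72 h doxycycline arrays lay below mock, with a change of -0.71 ± 0.44 (adjusted p = 0.88). In BJ-hTERT its levels at 24 h were 6.58, 5.54 and 6.67 in doxycycline arrays, against 5.79, 6.49 and 6.80 in mock arrays, and the change was -0.10 ± 0.44 (adjusted p = 0.98). The 72 h levels in BJ-hTERT were 7.02, 5.87 and 6.98 in doxycycline arrays, against 6.16, 6.79 and 4.76 in mock arrays, and the change was 0.72 ± 0.44 (adjusted p = 0.68). In no comparison did doxycycline arrays lie above all mock arrays.

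Within the risen stretch, row 5 of the NUTM2B run (probe set 16706551), which names every member but NUTM2F and NUTM2G, had the largest called change as measured in HEK293 at 72 h and in BJ-hTERT at 24 h, against very low mock levels. Its HEK293 levels at 72 h were 7.29, 7.46 and 6.33 in doxycycline arrays, against 0.84, 2.10 and 1.79 in mock arrays. In BJ-hTERT at 24 h they were 7.13, 7.81 and 8.33 in doxycycline arrays, against 2.18, 1.41 and 2.98 in mock arrays. The rises were 5.45 ± 0.74 (adjusted p = 0.005) and 5.57 ± 0.74 (adjusted p = 0.0015). All 6 of these mock arrays lay under 3.03, the 40th percentile of the group means of all rows, and no detection call is used here, so these mock levels may be background, and the sizes and ranks rest on them. With arrays under 3.03 set to 3.03, a floor chosen after seeing the data, the changes were 4.002 and 4.73, the first beside 3.99 at row 10 and the second below the 5.29 of row 4. In BJ-hTERT at 72 h it read 7.16, 6.46 and 7.80 in doxycycline arrays, against 4.40, 0.73 and 4.54 in mock arrays, where mock array 2 stood far below the other mock arrays, and the row rose by 3.92 ± 0.74 (adjusted p = 0.025). At 24 h in HEK293 it read 5.99, 6.67 and 7.06 in doxycycline arrays, against 3.07, 2.995 and 3.10 in mock arrays, and the change of 3.52 ± 0.74 (adjusted p = 0.15) missed the threshold although the groups were well apart.

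Row 8 of the NUTM2B run (probe set 16706554) names all 7 members and had the largest called rise in HEK293 at 24 h, with the same floor too. There it read 8.29, 8.38 and 8.58 in doxycycline arrays, against 3.88, 2.61 and 5.20 in mock arrays. Its HEK293 levels at 72 h came to 7.92, 7.89 and 8.43 in doxycycline arrays, against 5.26, 2.65 and 5.60 in mock arrays. The doxycycline arrays of each time lay within 1 log2 unit of each other, and the mock arrays spread over more than 2 units. The rises were 4.52 ± 0.63 (adjusted p = 0.0097) and 3.58 ± 0.63 (adjusted p = 0.046). In BJ-hTERT it read 9.12, 9.22 and 9.21 in doxycycline arrays, against 5.25, 5.39 and 5.69 in mock arrays at 24 h. After 72 h the BJ-hTERT levels were 8.44, 8.40 and 8.78 in doxycycline arrays, against 5.94, 4.34 and 5.55 in mock arrays. These groups did not overlap either, and the row rose by 3.73 ± 0.63 (adjusted p = 0.0068) and 3.27 ± 0.63 (adjusted p = 0.028).

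Row 11 of the NUTM2B run (probe set 16706557), which names NUTM2A, NUTM2B, NUTM2D and NUTM2E, had called rises with small errors in every comparison. Its HEK293 levels at 24 h were 9.46, 9.70 and 9.31 in doxycycline arrays, against 7.14, 6.31 and 5.68 in mock arrays. In HEK293 at 72 h they were 9.71, 9.25 and 9.55 in doxycycline arrays, against 6.15, 6.47 and 5.75 in mock arrays. The lowest doxycycline array lay more than 2 units above the highest mock array, and the changes were 3.12 ± 0.35 (adjusted p = 0.0011) and 3.38 ± 0.35 (adjusted p = 0.00044). The BJ-hTERT levels at 24 h were 10.28, 9.99 and 10.62 in doxycycline arrays, against 6.37, 6.59 and 6.75 in mock arrays. At 72 h they came to 9.63, 9.27 and 9.96 in doxycycline arrays, against 5.84, 6.22 and 7.12 in mock arrays. The rise in BJ-hTERT was 3.73 ± 0.35 (adjusted p = 0.00016) at 24 h and 3.23 ± 0.35 (adjusted p = 0.00062) at 72 h, again with no overlap.

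The NUTM2A run gave 3 more rows called in all 4 comparisons. Row 7 (probe set 16706955), which names every member but NUTM2F, read 6.67, 6.52 and 6.55 in doxycycline arrays, against 4.23, 3.93 and 3.76 in mock arrays in HEK293 at 24 h. Its 72 h levels in HEK293 were 7.29, 7.04 and 7.18 in doxycycline arrays, against 4.72, 4.73 and 5.84 in mock arrays. In BJ-hTERT the levels of row 7 were 7.31, 7.99 and 7.65 in doxycycline arrays, against 4.23, 3.63 and 4.55 in mock arrays at 24 h. The 72 h levels in that line were 6.84, 7.38 and 7.68 in doxycycline arrays, against 4.41, 3.67 and 3.53 in mock arrays, and doxycycline arrays lay above mock arrays in each of the 4 comparisons. Its rises were 2.60 ± 0.33 (adjusted p = 0.0038) and 2.07 ± 0.33 (adjusted p = 0.019) in HEK293 and 3.51 ± 0.33 (adjusted p = 0.00016) and 3.43 ± 0.33 (adjusted p = 0.00037) in BJ-hTERT.

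Row 8 of the NUTM2A run (probe set 16706956) names every member but NUTM2F and NUTM2G. The HEK293 values were 8.87, 8.99 and 9.03 in doxycycline arrays, against 5.65, 4.92 and 5.49 in mock arrays at 24 h. They were 9.16, 9.07 and 8.78 in doxycycline arrays, against 5.03, 4.99 and 6.58 in mock arrays at 72 h, where mock array 3 stood above the other mock arrays but below every doxycycline array. The rises were 3.61 ± 0.32 (adjusted p = 0.00013) and 3.47 ± 0.32 (adjusted p = 0.00011), the smallest adjusted p-values of any member in HEK293. In BJ-hTERT the values were 9.76, 9.54 and 9.90 in doxycycline arrays, against 6.71, 6.40 and 6.57 in mock arrays at 24 h. They were 9.29, 9.28 and 9.55 in doxycycline arrays, against 6.33, 5.95 and 6.44 in mock arrays at 72 h. The 3 arrays of each BJ-hTERT group lay within 0.5 log2 units of each other, and the rises were 3.17 ± 0.32 (adjusted p = 0.00023) and 3.13 ± 0.32 (adjusted p = 0.00049).

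Row 11 of the NUTM2A run (probe set 16706959), the last risen row of that run, names NUTM2A, NUTM2B, NUTM2D, NUTM2E and NUTM2HP. It read 7.59, 8.27 and 8.39 in doxycycline arrays, against 5.16, 4.52 and 4.29 in mock arrays in HEK293 at 24 h. At 72 h its HEK293 levels were 8.09, 8.01 and 7.995 in doxycycline arrays, against 3.57, 4.93 and 4.84 in mock arrays. The HEK293 rises were 3.43 ± 0.44 (adjusted p = 0.0039) and 3.59 ± 0.44 (adjusted p = 0.0017), with no overlap. For BJ-hTERT the 24 h levels were 8.94, 8.50 and 9.12 in doxycycline arrays, against 4.06, 4.95 and 4.72 in mock arrays. The 72 h levels were 7.80, 8.09 and 8.84 in doxycycline arrays, against 3.37, 3.88 and 5.08 in mock arrays. Doxycycline and mock arrays were more than 2 units apart at both times, and the rises were 4.28 ± 0.44 (adjusted p = 0.00023) and 4.13 ± 0.44 (adjusted p = 0.00056).

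**Figure D2:**
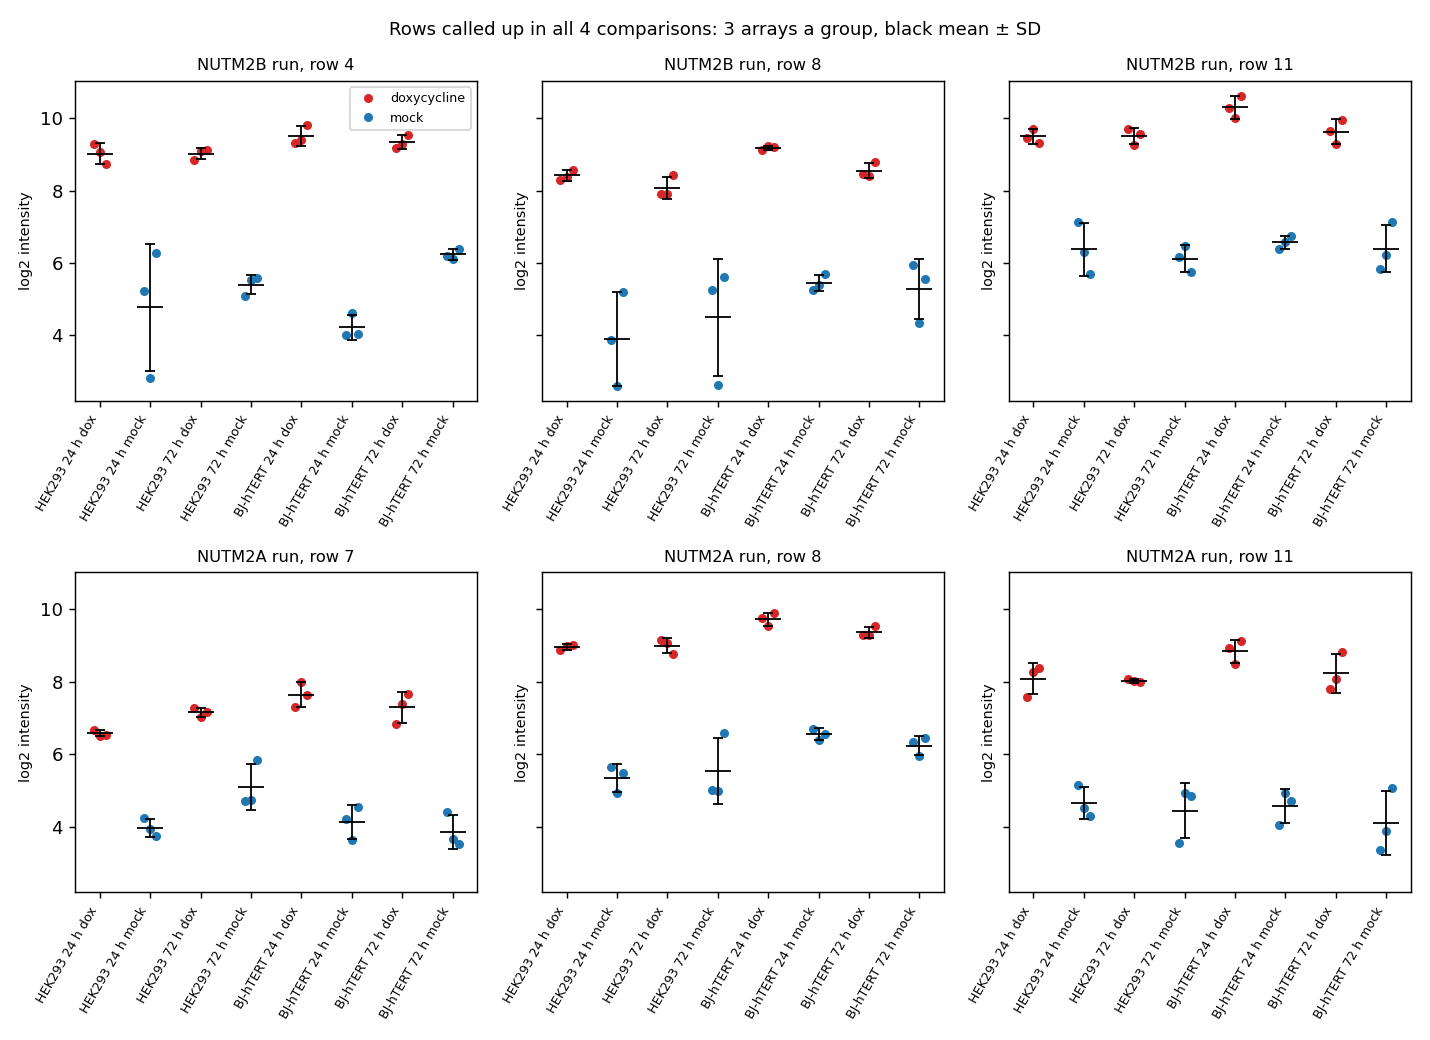
Level of each row called to rise in all 4 comparisons (log2 intensity, vertical axis) in the 8 groups (horizontal axis), with doxycycline arrays in red, mock arrays in blue and the mean ± SD in black (n = 3 arrays). Every doxycycline array lies above every mock array of its line and time in all 6 rows.

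Rows 6, 7 and 9 of the NUTM2B run, between the rows called everywhere, were called in some comparisons only. Row 6 names all 7 members and was called in BJ-hTERT at 24 h alone. After 24 h, HEK293 gave 7.32, 6.02 and 6.996 in doxycycline arrays, against 5.45, 4.74 and 5.61 in mock arrays. After 72 h, HEK293 gave 7.21, 7.84 and 7.46 in doxycycline arrays, against 5.13, 5.50 and 5.32 in mock arrays. Doxycycline arrays lay above mock arrays at both times, with changes of 1.51 ± 0.42 (adjusted p = 0.41) and 2.19 ± 0.42 (adjusted p = 0.077) that missed the threshold. After 24 h, BJ-hTERT gave 7.27, 7.93 and 8.004 in doxycycline arrays, against 6.35, 4.51 and 6.13 in mock arrays. After 72 h, BJ-hTERT gave 7.58, 7.62 and 7.33 in doxycycline arrays, against 6.29, 5.59 and 5.83 in mock arrays. Its rise was 2.07 ± 0.42 (adjusted p = 0.023) at 24 h, and the 72 h change of 1.61 ± 0.42 (adjusted p = 0.11) missed the threshold.

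Row 7 of the NUTM2B run, which names every member but NUTM2F and NUTM2G, was called in 3 comparisons. Its levels in HEK293 were 7.99, 7.27 and 8.57 in doxycycline arrays, against 6.29, 4.40 and 4.31 in mock arrays at 24 h. After 72 h they were 8.52, 7.86 and 8.09 in doxycycline arrays, against 4.02, 4.40 and 5.72 in mock arrays. The 24 h change of 2.94 ± 0.57 (adjusted p = 0.097) was not called, and the 72 h rise was 3.44 ± 0.57 (adjusted p = 0.028). The BJ-hTERT levels were 8.71, 8.42 and 9.09 in doxycycline arrays, against 4.79, 5.62 and 4.13 in mock arrays at 24 h. They were 8.58, 8.25 and 8.59 in doxycycline arrays, against 4.29, 6.08 and 4.55 in mock arrays after 72 h. It rose by 3.89 ± 0.57 (adjusted p = 0.0027) and 3.50 ± 0.57 (adjusted p = 0.01), with no overlap.

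Row 9 of the NUTM2B run names all 7 members and was called only in the fibroblast line, though the difference between the lines did not pass its own test. HEK293 cells at 24 h read 5.85, 5.83 and 6.11 in doxycycline arrays, against 4.70, 4.55 and 3.58 in mock arrays. HEK293 levels at 72 h were 5.97, 6.11 and 6.64 in doxycycline arrays, against 4.003, 4.69 and 5.06 in mock arrays. The groups did not overlap, and the changes were 1.66 ± 0.45 (adjusted p = 0.4) and 1.66 ± 0.45 (adjusted p = 0.36). BJ-hTERT levels at 24 h were 7.38, 7.18 and 7.58 in doxycycline arrays, against 3.05, 4.17 and 5.08 in mock arrays. BJ-hTERT levels at 72 h were 6.59, 7.07 and 7.12 in doxycycline arrays, against 4.09, 3.80 and 5.21 in mock arrays. The rises were 3.28 ± 0.45 (adjusted p = 0.0018) and 2.56 ± 0.45 (adjusted p = 0.017), and the change differed from that in HEK293 by 1.63 ± 0.64 (adjusted p = 0.45) at 24 h.

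Rows 10 and 12 of the NUTM2B run flank row 11 and name NUTM2B alone. Row 10 is given first. Its levels in HEK293 were 7.91, 7.50 and 7.46 in doxycycline arrays, against 4.78, 3.33 and 5.92 in mock arrays at 24 h. After 72 h they were 7.48, 7.92 and 7.46 in doxycycline arrays, against 3.80, 3.26 and 3.83 in mock arrays. The groups did not overlap, and only the 72 h change was called, 3.99 ± 0.54 (adjusted p = 0.005), beside 2.95 ± 0.54 (adjusted p = 0.075) at 24 h. The BJ-hTERT levels were 8.35, 8.01 and 8.77 in doxycycline arrays, against 3.42, 4.80 and 4.62 in mock arrays at 24 h. They were 7.77, 7.91 and 8.12 in doxycycline arrays, against 3.78, 5.70 and 5.49 in mock arrays after 72 h. No mock array of the fibroblast line reached its doxycycline arrays.

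Row 12 of the NUTM2B run is the last risen row there. The 24 h values in HEK293 were 7.11, 7.37 and 7.87 in doxycycline arrays, against 4.89, 4.50 and 5.46 in mock arrays. The 72 h values in HEK293 were 7.43, 7.64 and 7.70 in doxycycline arrays, against 4.72, 4.75 and 3.53 in mock arrays. Its change of 2.50 ± 0.44 (adjusted p = 0.061) at 24 h missed the threshold and it rose by 3.26 ± 0.44 (adjusted p = 0.005) at 72 h. The 24 h values in BJ-hTERT were 8.99, 8.64 and 8.77 in doxycycline arrays, against 6.30, 5.74 and 5.33 in mock arrays. The 72 h values in BJ-hTERT were 7.90, 7.44 and 8.74 in doxycycline arrays, against 4.34, 4.39 and 5.97 in mock arrays. The rises in BJ-hTERT were 3.01 ± 0.44 (adjusted p = 0.0027) and 3.13 ± 0.44 (adjusted p = 0.0046), with no overlap.

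Row 10 of the NUTM2A run, next to row 11 and named for NUTM2A alone, was called in the same 3 comparisons as rows 10 and 12 of the NUTM2B run. Its levels in HEK293 were 7.47, 7.58 and 7.48 in doxycycline arrays, against 5.70, 5.66 and 6.10 in mock arrays at 24 h. After 72 h they were 7.23, 7.75 and 7.49 in doxycycline arrays, against 5.38, 5.01 and 5.09 in mock arrays. It was called at 72 h, 2.33 ± 0.39 (adjusted p = 0.033), and not at 24 h, 1.69 ± 0.39 (adjusted p = 0.24), with no overlap at either time. The BJ-hTERT levels were 8.42, 8.38 and 8.94 in doxycycline arrays, against 5.13, 5.68 and 5.81 in mock arrays at 24 h. They were 7.64, 7.78 and 8.23 in doxycycline arrays, against 5.18, 6.28 and 3.94 in mock arrays after 72 h. The rises were 3.04 ± 0.39 (adjusted p = 0.0013) and 2.75 ± 0.39 (adjusted p = 0.005).

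Past the risen stretch no row was called to rise, which follows from how the stretch was drawn. Row 12 of the NUTM2A run, which names NUTM2A alone, was intermediate. Its HEK293 levels at 24 h were 7.37, 5.18 and 6.41 in doxycycline arrays, against 3.62, 3.40 and 5.63 in mock arrays, a change of 2.10 ± 0.66 (adjusted p = 0.53). Its 72 h levels in HEK293 were 4.92, 6.81 and 5.18 in doxycycline arrays, against 5.37, 4.42 and 4.72 in mock arrays, a change of 0.80 ± 0.66 (adjusted p = 0.94). The groups overlapped at both times. In BJ-hTERT at 24 h it read 6.64, 5.82 and 6.92 in doxycycline arrays, against 4.03, 3.52 and 4.13 in mock arrays. At 72 h in BJ-hTERT it read 5.01, 6.83 and 5.63 in doxycycline arrays, against 3.03, 4.17 and 3.95 in mock arrays. The doxycycline arrays lay above mock in BJ-hTERT at both times, yet the changes of 2.57 ± 0.66 (adjusted p = 0.09) and 2.11 ± 0.66 (adjusted p = 0.22) missed the threshold. Row 12 of the NUTM2B run, which names NUTM2B alone, rose in 3 of the 4 comparisons, by 3.01 ± 0.44 (adjusted p = 0.0027) in BJ-hTERT at 24 h for example. Rows 13, 14 and 15 of the NUTM2B run ranged from -1.43 to 1.32 over the 4 comparisons, and none was called. Of 20 rows that flank the 4 runs in the table, up to 3 on each side, 0 were called by limma in any of the 4 comparisons. Their changes ran from -1.89 to 1.71, with smallest adjusted p-values of 0.49 to 0.86. An unadjusted p under 0.05, in either direction, was seen at 1, 0, 1 and 1 of them. At that level 3.23%, 3.27%, 4.75% and 4.44% of all rows were higher and 3.03%, 3.1%, 4.79% and 5.04% lower.

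Beyond row 12 the NUTM2B run showed no called rise. Row 13 names every member but NUTM2HP. After 24 h, HEK293 gave 5.38, 5.40 and 5.14 in doxycycline arrays, against 5.003, 4.83 and 6.12 in mock arrays. After 72 h, HEK293 gave 4.44, 3.75 and 3.95 in doxycycline arrays, against 5.58, 5.41 and 5.43 in mock arrays. Doxycycline arrays lay below mock at 72 h, with a change of -1.43 ± 0.54 (adjusted p = 0.65). After 24 h, BJ-hTERT gave 3.73, 2.53 and 5.17 in doxycycline arrays, against 4.35, 5.34 and 5.10 in mock arrays. After 72 h, BJ-hTERT gave 4.95, 6.07 and 6.06 in doxycycline arrays, against 3.48, 4.60 and 5.03 in mock arrays. The BJ-hTERT groups overlapped at both times, and the changes were -1.12 ± 0.54 (adjusted p = 0.53) and 1.32 ± 0.54 (adjusted p = 0.41).

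Row 14 of the NUTM2B run names NUTM2A, NUTM2B and NUTM2D. Its levels in HEK293 were 1.90, 3.52 and 4.12 in doxycycline arrays, against 3.33, 2.40 and 4.19 in mock arrays at 24 h. After 72 h they were 2.16, 5.16 and 2.68 in doxycycline arrays, against 4.22, 2.04 and 2.16 in mock arrays. Groups overlapped, and the changes were -0.13 ± 0.88 (adjusted p = 1) and 0.53 ± 0.88 (adjusted p = 0.99). The BJ-hTERT levels were 2.60, 2.10 and 4.41 in doxycycline arrays, against 4.02, 4.34 and 3.64 in mock arrays at 24 h. They were 2.55, 4.35 and 1.37 in doxycycline arrays, against 2.82, 3.41 and 2.92 in mock arrays after 72 h. Overlap was seen here too, with changes of -0.96 ± 0.88 (adjusted p = 0.83) and -0.29 ± 0.88 (adjusted p = 0.97).

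The last row of the NUTM2B run, row 15, names NUTM2B alone. HEK293 cells at 24 h read 2.61, 3.84 and 2.86 in doxycycline arrays, against 2.95, 1.68 and 1.53 in mock arrays. HEK293 levels at 72 h were 1.09, 2.40 and 2.67 in doxycycline arrays, against 2.42, 2.83 and 1.71 in mock arrays. The groups overlapped at both times, and the changes were 1.05 ± 0.60 (adjusted p = 0.86) and -0.26 ± 0.60 (adjusted p = 0.99). BJ-hTERT levels at 24 h were 0.51, 1.43 and 2.01 in doxycycline arrays, against 2.88, 1.63 and 3.67 in mock arrays. BJ-hTERT levels at 72 h were 1.05, 2.84 and 2.25 in doxycycline arrays, against 2.60, 2.29 and 1.93 in mock arrays. Its changes in BJ-hTERT were -1.41 ± 0.60 (adjusted p = 0.44) and -0.23 ± 0.60 (adjusted p = 0.96), again with overlap.

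Rows that name 1 gene let the paralogs be viewed apart as far as the annotation allows. NUTM2B alone is named by rows 10, 12 and 15 of its run. Row 10 rose by 3.99 ± 0.54 (adjusted p = 0.005) in HEK293 at 72 h, by 4.09 ± 0.54 (adjusted p = 0.0015) in BJ-hTERT at 24 h and by 2.94 ± 0.54 (adjusted p = 0.022) at 72 h. Row 15 rose in none, with changes from -1.41 to 1.05. Among rows that name NUTM2A alone, row 10 rose in 3 comparisons, by 3.04 ± 0.39 (adjusted p = 0.0013) in BJ-hTERT at 24 h, and rows 2 and 12 in none. NUTM2D alone is named by 3 rows, and none rose. NUTM2G alone is named by 8 rows, of which 2 rose. In all, 5 of the 17 rows with a single name rose in at least 1 comparison, and 10 of the 17 rows with several names did, beside 0.378% of all rows. Probe sequences are not used here, so whether a row named for 1 paralog also reads the others was not tested.

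The NUTM2G run, on chromosome 9, rose in part. Row 2 (probe set 17087218) had the largest called change as measured in BJ-hTERT at 72 h, where it read 8.92, 9.0 and 9.15 in doxycycline arrays, against 4.74, 1.20 and 1.56 in mock arrays, a rise of 6.52 ± 0.87 (adjusted p = 0.0029). Of these mock arrays 2 lay under 3.03, and with them set to 3.03 the change was 5.42, so its size rests on levels that may be background. The 24 h levels in BJ-hTERT were 9.56, 9.21 and 9.42 in doxycycline arrays, against 6.59, 6.25 and 6.55 in mock arrays, and the change of 2.93 ± 0.87 (adjusted p = 0.17) missed the threshold. In HEK293 it read 8.87, 8.92 and 8.54 in doxycycline arrays, against 4.22, 6.69 and 5.77 in mock arrays at 24 h. At the later time it read 8.45, 8.53 and 8.45 in doxycycline arrays, against 6.20, 1.94 and 3.84 in mock arrays. Doxycycline arrays lay between 8.45 and 9.56 in all 4 groups, whereas mock arrays were spread from 1.20 to 6.69. The HEK293 changes were 3.21 ± 0.87 (adjusted p = 0.39) and 4.48 ± 0.87 (adjusted p = 0.083). Row 5 rose in BJ-hTERT by 2.89 ± 0.47 (adjusted p = 0.0052) at 24 h and by 2.39 ± 0.47 (adjusted p = 0.03) at 72 h, and in HEK293 its changes were 2.43 ± 0.47 (adjusted p = 0.093) and 2.00 ± 0.47 (adjusted p = 0.21). Rows 3 and 4 lay between them in the table, with changes of 1.07 to 2.05 and of -0.35 to 2.35, and were not called. Doxycycline arrays lay above all mock arrays in 3 of the 4 comparisons at row 3 and in 1 at row 4. Rows 1, 6, 7 and 8 had changes between -1.58 and 0.70.

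No row of the NUTM2D run passed the test, whichever comparison with mock was made. Row 2, which names NUTM2D alone, had the highest mock mean of any member in BJ-hTERT. In BJ-hTERT at 24 h it read 6.66, 6.43 and 7.22 in doxycycline arrays, against 6.28, 7.002 and 7.13 in mock arrays. At 72 h in BJ-hTERT the levels were 7.20, 7.41 and 7.21 in doxycycline arrays, against 6.92, 6.92 and 6.67 in mock arrays. The 24 h groups overlapped, the 72 h groups did not, and the changes were -0.03 ± 0.34 (adjusted p = 0.99) and 0.43 ± 0.34 (adjusted p = 0.78). For HEK293 row 2 read 6.76, 7.45 and 6.42 in doxycycline arrays, against 6.67, 6.60 and 6.98 in mock arrays at 24 h and 6.81, 6.65 and 7.11 in doxycycline arrays, against 6.85, 5.74 and 5.43 in mock arrays at 72 h. Row 3, which names NUTM2D and NUTM2E, had the lowest change of the family, -2.00 ± 0.51 (adjusted p = 0.082) in BJ-hTERT at 24 h. NUTM2D is also named by rows of the NUTM2B and NUTM2A runs, and 10 of the 20 distinct rows that name it rose in at least 1 comparison (0.378% of all rows did).

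**Figure D3:**
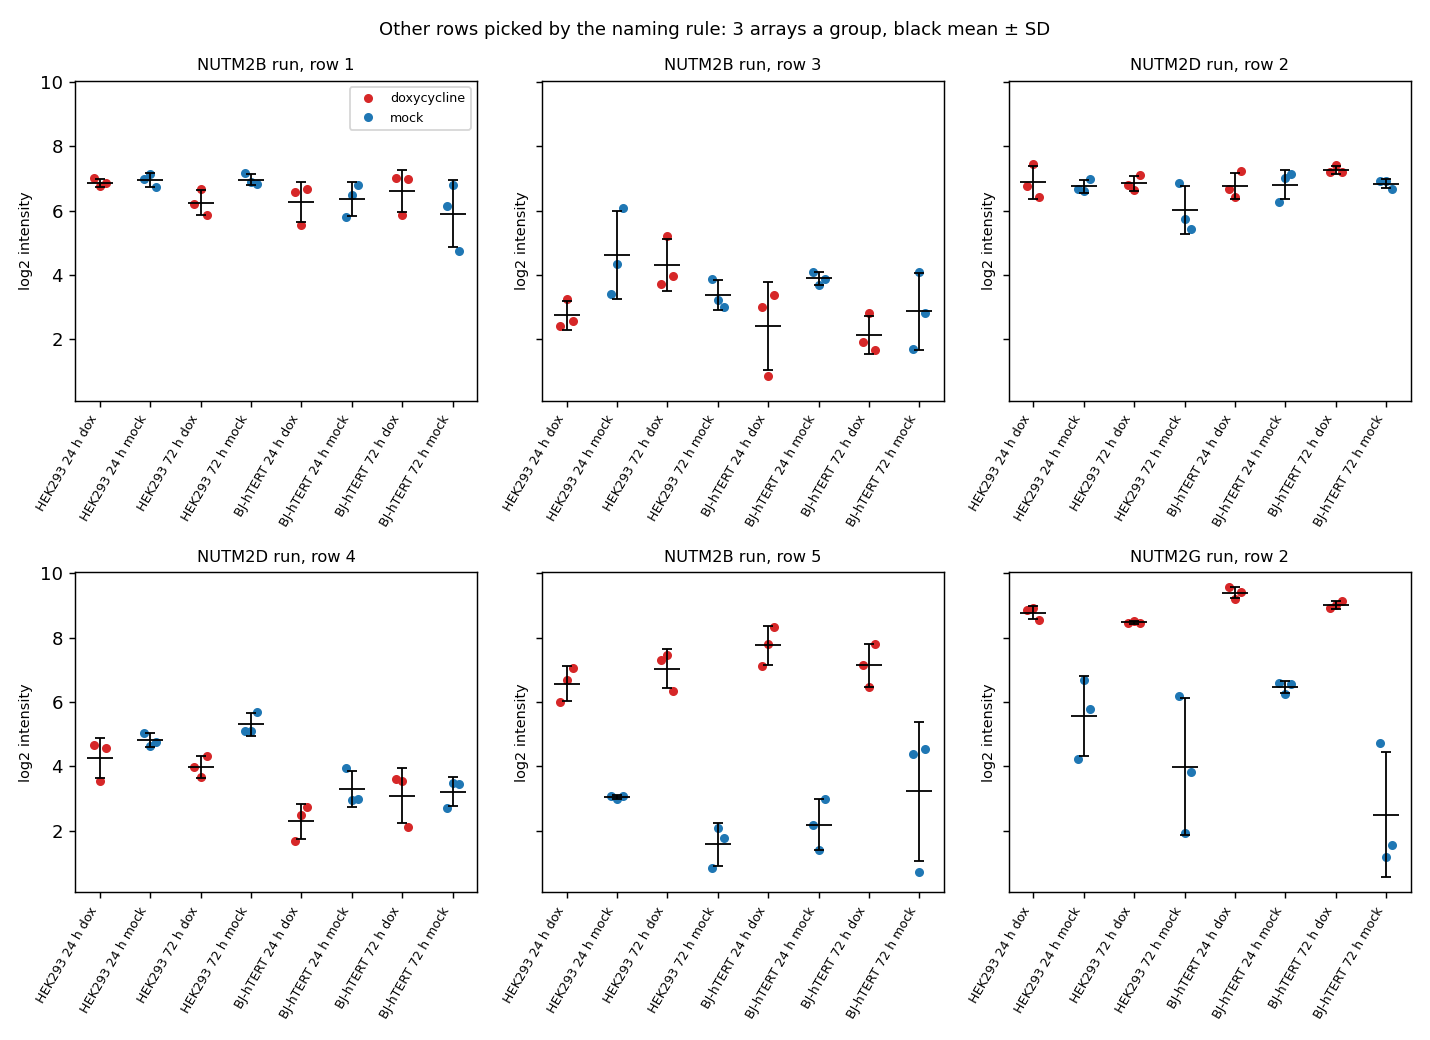
Level of 6 further rows (log2 intensity, vertical axis) in the 8 groups (horizontal axis), drawn as in the plot of the 6 risen rows, with the mean ± SD in black (n = 3 arrays). NUTM2B rows 1 and 3 and NUTM2D rows 2 and 4 show no called rise, while NUTM2B row 5 and NUTM2G row 2 show doxycycline arrays above all mock arrays and mock arrays between 0.73 and 6.69.

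Whether induction held between 24 and 72 h was asked by comparing the change at the 2 times. No member passed the test of that difference by limma in HEK293, with 1 member at unadjusted p under 0.05, or in BJ-hTERT, with 4. Over all rows, 0.000283% were called in HEK293 and 0.00312% in BJ-hTERT. Shares of all rows at unadjusted p under 0.05 were counted only for the comparisons of doxycycline with mock. Counts of members at that level between times or lines have no such share to be read against. The difference reached its smallest p at row 13 of the NUTM2B run in BJ-hTERT, 2.44 ± 0.76 (adjusted p = 0.62). For row 8 of the NUTM2A run the difference was -0.14 ± 0.46 in HEK293 (95% interval -1.10 to 0.81) and -0.04 ± 0.46 in BJ-hTERT (95% interval -0.99 to 0.92). These intervals leave room for changes of more than 1.5-fold either way. In doxycycline arrays alone, 72 h against 24 h, 0 members were called in HEK293 (0.00765% of all rows) and 0 in BJ-hTERT (0.00708%), with 2 members at unadjusted p under 0.05 in each. The 15 risen rows were picked for rises with doxycycline and are not independent readings, since several may read the same transcript. Their differences were -0.77 to -0.18 in BJ-hTERT, below 24 h in all 15, and -0.34 to 0.73 in HEK293, below in 7 of 15. Such counts carry no test.

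Between mock arrays at 72 and 24 h, 0 members were called in either line (0.0113% of all rows in HEK293, 0.0221% in BJ-hTERT). An unadjusted p under 0.05 was seen at 2 members in HEK293 and 4 in BJ-hTERT, with no share of all rows counted for it. The largest measured difference was at row 2 of the NUTM2G run in BJ-hTERT, whose mock arrays read 4.74, 1.20 and 1.56 at 72 h, against 6.59, 6.25 and 6.55 at 24 h, a change of -3.96 ± 0.87 (adjusted p = 0.17). At row 4 of the NUTM2B run the same comparison gave 2.01 ± 0.53 (adjusted p = 0.29).

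Induction was then compared between the lines. The change with doxycycline did not differ by the test at any member at 24 h (0.0615% of all rows called) or at 72 h (0.0377%). At these times 5 and 4 members had an unadjusted p under 0.05, with no share of all rows counted for it. The smallest p belonged to row 13 of the NUTM2B run at 72 h, 2.75 ± 0.76 (adjusted p = 0.27). Row 8 of the NUTM2A run differed by -0.44 ± 0.46 at 24 h (95% interval -1.39 to 0.52) and by -0.34 ± 0.46 at 72 h (95% interval -1.29 to 0.62). Row 7 of that run differed by 1.36 ± 0.47 (adjusted p = 0.4) at 72 h.

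**Figure D4:**
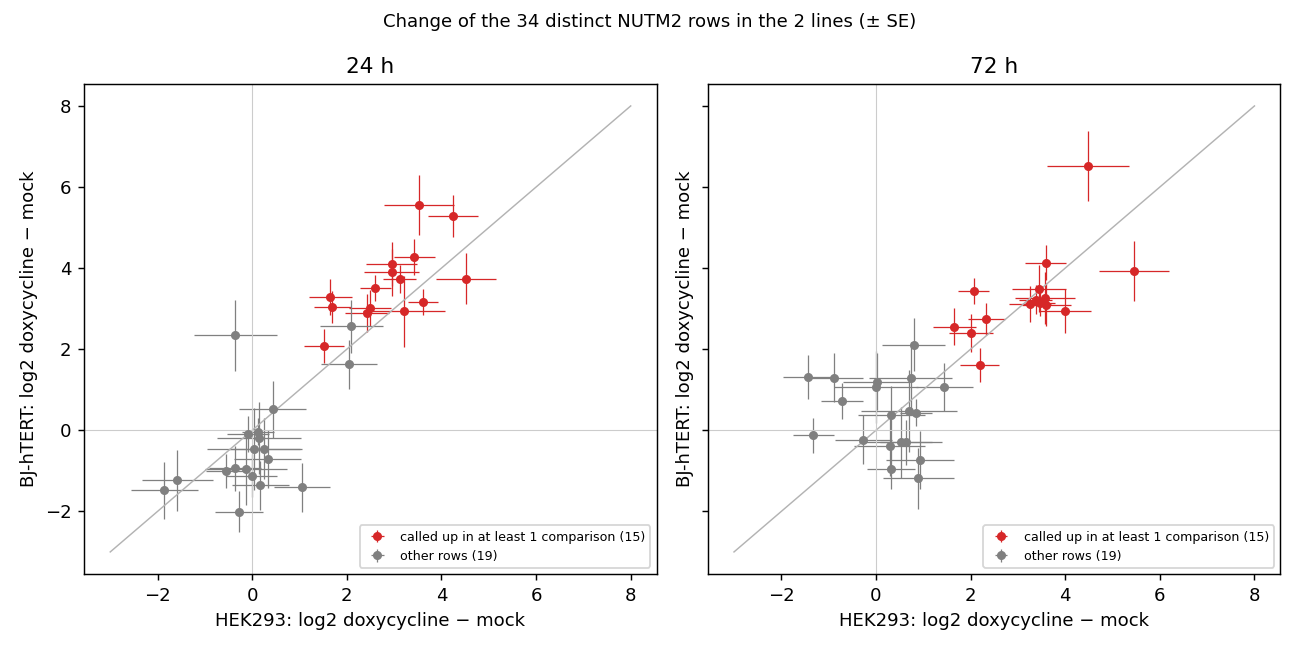
Change of each of the 34 distinct rows with doxycycline (log2 doxycycline minus mock, ± SE, n = 3 arrays a group) in HEK293 (horizontal axis) and in BJ-hTERT (vertical axis) at 24 h (left) and 72 h (right), with the line of equal change in grey. The 15 rows called in at least 1 comparison (red) lie above 0 in both lines, between 1.51 and 6.52, and the other 19 (grey) lie between -2.00 and 2.57.

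Levels with doxycycline, as against changes, were called different between the lines at 5 members at 24 h, 3 of them higher in BJ-hTERT and 2 lower. Of all rows 18.4% were called, 8.65% higher and 9.73% lower. Row 9 of the NUTM2B run was higher by 1.45 ± 0.45 (adjusted p = 0.029), row 12 by 1.35 ± 0.44 (adjusted p = 0.04) and row 7 of the NUTM2A run by 1.07 ± 0.33 (adjusted p = 0.027). Lower were row 15 of the NUTM2B run, -1.78 ± 0.60 (adjusted p = 0.045), and row 4 of the NUTM2D run, described with its mock levels. Both had their 3 BJ-hTERT arrays under 3.03, and with arrays under 3.03 set to 3.03 the differences were -0.27 and -1.23. All 15 risen rows had a higher BJ-hTERT mean at 24 h, by 0.49 to 1.45, and at 72 h, by 0.01 to 0.69. These rows were picked for rises with doxycycline, which were called more often in BJ-hTERT, and are not independent readings. That count therefore carries no test of a difference between the lines. At 72 h 2 members were called, 1 higher and 1 lower (18.9% of all rows, 8.86% and 10.1%), neither of them a risen row. They were row 3 of the NUTM2B run, at 1.92, 2.82 and 1.68 in BJ-hTERT and 3.74, 5.22 and 3.98 in HEK293, a difference of -2.17 ± 0.71 (adjusted p = 0.038), or -1.28 with the floor of 3.03, and row 13, 1.65 ± 0.54 (adjusted p = 0.038). With 18.4% and 18.9% of all rows differing between the lines, the members' shares (5 and 2 of 34) were below that of the array. Single arrays moved both counts. At 24 h the count was 1 without HEK293 doxycycline array 2, 3 without BJ-hTERT doxycycline array 3 and 2 without any other of the 6 arrays. At 72 h it was 0 without HEK293 array 2, HEK293 array 3 or BJ-hTERT array 3, and 1 without BJ-hTERT array 1 or 2.

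Without doxycycline the lines differed at 2 members at 24 h (16.7% of all rows) and at 2 members at 72 h (16.4%). Row 4 of the NUTM2D run (probe set 16706984, NUTM2D alone) was lower in BJ-hTERT at both times. At 24 h mock arrays read 3.95, 2.97 and 2.999 in BJ-hTERT and 5.05, 4.62 and 4.75 in HEK293, a difference of -1.50 ± 0.42 (adjusted p = 0.018). At 72 h they read 2.69, 3.48 and 3.47 in BJ-hTERT and 5.11, 5.10 and 5.71 in HEK293, a difference of -2.09 ± 0.42 (adjusted p = 0.0015). Its doxycycline arrays at 24 h, 1.69, 2.48 and 2.73 in BJ-hTERT and 4.66, 3.54 and 4.56 in HEK293, differed in the same direction, -1.95 ± 0.42 (adjusted p = 0.0024), and at 72 h the difference was -0.90 ± 0.42 (adjusted p = 0.17). The other calls were row 8 of the NUTM2A run at 24 h, 1.20 ± 0.32 (adjusted p = 0.013), and row 7 at 72 h, -1.23 ± 0.33 (adjusted p = 0.013). The 24 h count was 1 without HEK293 mock array 1, BJ-hTERT mock array 1 or BJ-hTERT mock array 3. At 72 h it was 4 without BJ-hTERT mock array 1 and 1 without BJ-hTERT mock array 3.

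Genes tied to the fusion or to the NUTM2 loci were counted in the same fit. The antisense gene NUTM2A-AS1 has 1 row, with changes of -0.02 and -0.53 in HEK293 and of 0.22 and 0.67 in BJ-hTERT at 24 and 72 h, each ± 0.33 and not called. NUTM2B-AS1 was looked for too and matched no row that names a single gene. The NUTM2A-AS1 level with doxycycline at 72 h was higher in BJ-hTERT than in HEK293, by 1.58 ± 0.33 (adjusted p = 0.0014). Of 14 rows of NUTM1, 0 were called in any comparison, with medians of 0.10, -0.04, 0.16 and -0.19 and 0, 0, 1 and 1 rows at unadjusted p under 0.05. Among 51 rows of 6 other 14-3-3 genes, 0 were called, with medians of 0.10, 0.12, 0.09 and -0.00337 and 0, 0, 1 and 0 rows at unadjusted p under 0.05. YWHAE itself was looked for but matched no row that names a single gene, so its change was not read. Its pseudogenes YWHAEP7 and YWHAEP1, chosen after the annotation was seen, have 4 rows, of which 0 were called and 0, 0, 1 and 0 had an unadjusted p under 0.05. Of 32 genes next to the NUTM2 genes on their chromosomes, 8 have rows, 36 in all, and 0 were called in any of the 4 comparisons by limma, with 2, 3, 5 and 0 rows at unadjusted p under 0.05. The smallest adjusted p was 0.063, at FAM245A (LINC00864 on the array), a change of -1.37 ± 0.33 in BJ-hTERT at 24 h. The counts of these lists take both directions together. Of all rows, 0.0326%, 0.051%, 0.764% and 0.418% were called in the same 4 comparisons. At unadjusted p under 0.05, 3.23%, 3.27%, 4.75% and 4.44% of all rows were higher and 3.03%, 3.1%, 4.79% and 5.04% lower.

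Genes used as markers of sarcomas with the fusion were also counted. Of 108 rows of CCND1, BCOR, KIT, NTRK3, NGFR and EGFR, 2 rose in HEK293 at 24 h, 5 in HEK293 at 72 h, 1 in BJ-hTERT at 24 h and 1 in BJ-hTERT at 72 h, and none fell. In the same order 0.0269%, 0.0405%, 0.208% and 0.154% of all rows rose. The medians of the 108 rows were 0.57, 0.80, -0.10 and 0.16, beside medians of all rows under 0.03 in size. In HEK293 the largest was a row of NGFR, a neurotrophin receptor, with means of 6.30 in doxycycline and 1.75 in mock arrays at 24 h (4.54 ± 0.56, adjusted p = 0.0033) and of 6.71 in doxycycline and 1.35 in mock arrays at 72 h (5.36 ± 0.56, adjusted p = 0.00044). Both mock means lie under 3.03, so these sizes carry the same limit. Of the 9 NGFR rows, 2 were called in HEK293 at 24 h and 1 at 72 h, with median changes of 2.12 and 2.17. Cyclin D1 (CCND1) had 4 of its 10 rows called at 72 h in HEK293. In BJ-hTERT the called rows were of BCOR, a transcriptional corepressor, with 1 row that rose by 1.31 ± 0.22 at 24 h (adjusted p = 0.0064) and a different row that rose by 1.22 ± 0.26 at 72 h (adjusted p = 0.043). The rows of the receptor tyrosine kinases NTRK3, KIT and EGFR had 0 calls by limma in the 4 comparisons, and 20 NTRK3 rows had median changes of 1.91 and 2.38 in HEK293 and of -0.234 and 0.471 in BJ-hTERT at 24 and 72 h. At unadjusted p under 0.05, 37, 44, 15 and 12 of the 108 rows were higher and 0, 0, 1 and 2 lower, where 3.23%, 3.27%, 4.75% and 4.44% of all rows were higher and 3.03%, 3.1%, 4.79% and 5.04% lower. The test of whether these changes differ between the lines is not given here for these rows, so no difference between the lines is read from them.

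The genes whose rows most resembled the family were found by Pearson correlation with the mean of the 34 members over 24 arrays, after each value was set against the mean of its line and time. The 213337 rows compared had 1 symbol that is no member and a highest group mean of at least 3.03, so low rows were left out. The highest were a row of the homeobox gene HOXD10 (r = 0.929), SRPX (0.920), the N-cadherin gene CDH2 (0.890) and KLHL29 (0.886). Next came the protocadherin PCDHGC3 (0.877), the transcriptional repressor BHLHE41 (0.877), the protease ADAMTS5 (0.871) and HOXD11 (0.869). All 24 arrays share the doxycycline contrast that shapes the family, so these values describe a likeness and carry no test. The HOXD10 row had changes of 0.475 and 0.817 in HEK293 and of 0.609 and 0.735 in BJ-hTERT at 24 and 72 h, and was not called in any of the 4. BHLHE41 had changes of 1.26, 1.11, 1.64 and 1.67 in the same order, also without a call. Of the 8 rows, KLHL29 was called in 1 comparison, at 1.03 in BJ-hTERT at 72 h.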

How the data were processed

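RNA was hybridised to 24 arrays in 8 groups of 3. The values deposited by the authors are log2 intensities per probe set, on the RMA (robust multi-array average) scale. GCOS, RMA and Affymetrix Expression Console are named, without versions, in the submitters' processing notes, and oligo and limma in the series design text. The sources used here do not state which arrays were normalised as a set, nor a build or array library. Values ran from -0.193 to 13.8 with 0 missing.

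Members and gene lists were chosen with earlier results of these data known. Rows were matched to symbols through the platform annotation, which named 275431 of 352859 rows. Identical rows were counted once as members and kept in the adjustment. The fit used limma 3.58.1 in R 4.3.3 with eBayes, no filter on low values and 2-sided p-values, over 16 comparisons. Its code was also run on simulated data with planted changes and independent noise, which does not test rows that read the same transcript. Named rows were those called to rise in all 4 doxycycline comparisons, the largest called change of each comparison, the highest mock mean of each line, neighbours of the first set in row order, 1 row per gene list and comparison, and the 8 most similar genes. Alternatives were a filter at the 40th percentile of group means, identical rows once, an intensity trend, robust eBayes, median centring, quantile normalisation, fits on 1 line or 6 arrays, array weights, a replicate block, each array left out, and rows with 1 symbol. A floor at the 40th percentile was added after seeing the data, for sizes only. The number of arrays limits the precision.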

Additional observations from a re-analysis of the deposited data

How the results depend on the processing

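All 45 called rises of single rows kept their direction under every alternative, but most alternatives could not have turned it. The filter, identical rows once, the trend, robust eBayes, the fits on fewer groups and the replicate block left the changes themselves as they were. In these rows every doxycycline array lay above every mock array, so leaving out 1 array could not reverse a change either. All 45 were still called after a filter on low rows, with identical rows entered once, with an intensity trend, after a second quantile normalisation and with array weights, and 44 with robust eBayes and 44 after median centring. Median centring left 1 member called between the lines with doxycycline at 72 h, against 2. In the doxycycline comparisons the count of calls fell most where fewer arrays shared the estimate of spread. With each line fitted alone it was 0 in HEK293 at 24 h, 6 at 72 h, 8 in BJ-hTERT at 24 h and 2 at 72 h, with 0 rows called in all 4. With 6 arrays alone it was 0 in each doxycycline comparison and in all 4 together, 0 and 1 between mock lines at 24 and 72 h, and 1 between doxycycline lines at 72 h, but 6 between doxycycline lines at 24 h, against 5 with all arrays. At unadjusted p under 0.05 the single-line fits had 19, 18, 21 and 19 members and the 6-array fits 19 each. Shares of all rows were not counted for these or the other refits, so the counts of members have none beside them.

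Among the 17 rows with 1 symbol, 0, 3, 4 and 5 were called in the doxycycline comparisons of HEK293 at 24 and 72 h and BJ-hTERT at 24 and 72 h (8, 8, 11 and 7 at unadjusted p under 0.05), 0 in all 4, 1 and 1 between mock lines, and 3 and 0 between doxycycline lines. These counts were of the main fit, where 0.0326%, 0.051%, 0.764% and 0.418% of all rows were called in the 4 doxycycline comparisons. In all 4 together 0.00198% of all rows rose. Between lines 16.7% and 16.4% were called in mock arrays and 18.4% and 18.9% in doxycycline arrays. At unadjusted p under 0.05, 3.23%, 3.27%, 4.75% and 4.44% of all rows were higher and 3.03%, 3.1%, 4.79% and 5.04% lower. All 34 rows name NUTM2 genes only, so that choice changed nothing.

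Leaving out 1 array gave 6 to 7 calls in HEK293 at 24 h, 6 to 10 at 72 h, 13 to 14 in BJ-hTERT at 24 h, 9 to 11 at 72 h and 3 to 7 in all 4. Between lines it gave 1 to 3 and 1 to 4 in mock and 1 to 3 and 0 to 3 in doxycycline arrays, and 0 to 1 between mock times in BJ-hTERT. Of 270 such values of called rises, 218 were still called, from 1.49 to 7.64. The array left alone with 1 partner was taken to vary like the other groups.

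The replicate block gave 6, 9, 14 and 14 calls and 6 in all 4. Same-numbered arrays deviated with r from -0.0227 to 0.0113, so the numbers were not taken as pairs. The number of arrays limits what could be called, and the median residual SD of the members was 0.713.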
